A study of Mus musculus with 13 samples.

Results

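The enzymes of the betaine and methionine cycle were followed in mouse embryonic stem (ES) cells grown with a ligand of G-quadruplexes (G4), the 4-stranded structures that guanine-rich DNA can fold into. The 9 genes were Bhmt, Bhmt2, Dmgdh, Chdh, Mtr, Mat2a, Mat2b, Ahcy and Cbs, taken by symbol from the 24079 genes of an RNA-seq count table. All 9 were found. CGR8 cells, an established mouse ES line, were cultured for 48 h in 0.5% DMSO (control) or in 0.5% DMSO with 10 μM PhenDC3, a bisquinolinium compound that binds G4. RNA-seq covered 3 control and 3 PhenDC3 samples, and SNS-seq, which maps the short nascent DNA strands made where replication starts, covered 3 control and 2 PhenDC3 samples. Every sample came from the same cell line, and DMSO was present in both conditions. Bhmt was chosen by its counts in these 6 RNA samples, which were strongly higher with PhenDC3, so its difference is described and not tested. The other 8 were added by their place in the pathway, with earlier results of these data known.

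The methionine cycle supplies methyl groups. Methionine adenosyltransferase makes S-adenosylmethionine, methyltransferases spend it, and the resulting S-adenosylhomocysteine is cleaved to homocysteine. Homocysteine is then remethylated to methionine with a methyl group from folate, through methionine synthase, or from betaine, through betaine-homocysteine methyltransferase, or it is removed as cysteine through transsulfuration. The betaine route starts from choline and is best known in liver and kidney, while ES cells are known for a high demand for S-adenosylmethionine and threonine-derived one-carbon units.

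Bhmt, Bhmt2 and Dmgdh lay next to each other on chromosome 13, whereas Chdh (chr14), Mat2a (chr6), Mat2b (chr11), Ahcy (chr2) and Cbs (chr17) lay on other chromosomes, and Mtr lay elsewhere on chromosome 13. On GRCm38.p6, the build of the peak files, Bhmt spans chr13:93616891-93637758 on the minus strand, Bhmt2 spans chr13:93656097-93674302 on the minus strand, and Dmgdh spans chr13:93674436-93752823 on the plus strand. Bhmt2 and Dmgdh are transcribed away from each other, with starts 134 bp apart. The start of Bhmt is 36.5 kb from that of Bhmt2. Mtr spans chr13:12181331-12258199 (minus strand), far from the other 3. Chdh spans chr14:30008901-30040468 (plus strand), Mat2a chr6:72432796-72439556, Mat2b chr11:40679314-40695203, Ahcy chr2:155059310-155074497 and Cbs chr17:31612623-31637233, the last 4 on the minus strand.

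The stretches next to these starts are shown because PhenDC3 binds G4 and because the 3 genes had the highest fold changes of the 9. Both are RefSeq sequence of GRCm38.p6 on the minus strand. The first is the 250 bases before the Bhmt start (chr13:93637759-93638008), with AGGTCA, a sequence known as the half-site of nuclear receptors, in capitals. The second is the 133 bases between the Bhmt2 and Dmgdh starts (chr13:93674303-93674435), with runs of at least 3 G in capitals.
Bhmt upstream: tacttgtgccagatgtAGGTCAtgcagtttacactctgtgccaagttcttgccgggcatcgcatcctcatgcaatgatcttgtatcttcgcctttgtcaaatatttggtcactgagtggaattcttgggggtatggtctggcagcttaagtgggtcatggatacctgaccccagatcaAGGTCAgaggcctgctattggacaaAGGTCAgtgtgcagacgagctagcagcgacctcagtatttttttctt
Bhmt2 to Dmgdh: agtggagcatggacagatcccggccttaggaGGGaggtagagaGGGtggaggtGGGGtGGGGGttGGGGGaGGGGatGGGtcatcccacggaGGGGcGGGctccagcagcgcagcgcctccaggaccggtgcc

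The region between Bhmt2 and Dmgdh held 9 runs of at least 3 G on the strand shown. Its highest G4Hunter score, a measure of G richness and skew in windows of 25 bases, was 3.04, against a threshold of 2 for a predicted G4. In promoter windows of 250 bases before to 50 bases after a start, Bhmt2 and Dmgdh share this stretch, Cbs also reached 3.04, and Chdh reached 2.16 and 2.28 at 2 of its 3 annotated starts. At least 1 window held a predicted G4 in 4 of the 9 genes, 2 of which share the stretch, beside 21.1% of 27025 genes with RefSeq promoter windows. At the looser threshold of 1.5 it was 6 of the 9, beside 43.8% of genes. The Bhmt window scored 1.20 and had a GC content of 48.0%, compared with a median of 52.7% over all windows. AGGTCA was searched on both strands after the Bhmt sequence had been seen. It occurred 3 times in the Bhmt window, and at least 3 occurrences were found in 0.183% of 32851 windows and at least 1 in 16.3% of all windows. The longer TCAAGGTCA, which contains AGGTCA, occurred once before Bhmt and in 0.423% of all windows. Among the other 8 genes, AGGTCA occurred only in the Ahcy window, once. The cut of 3 is the count of the Bhmt window itself, so no enrichment is read from these shares. Such matches also say nothing of whether a protein binds there.

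The RNA libraries held between 22232014 and 29486502 counts. Levels are given as CPM, counts per 1e6 of a library after relative log expression (RLE) scaling. Changes are log2 fold changes, PhenDC3 against control, with their standard error (SE), from edgeR's quasi-likelihood test, and p-values were adjusted by Benjamini-Hochberg over the 13972 genes that passed the low-count filter. No label says whether the RNA samples came from separate cultures, so p-values measure the spread between these samples. An adjusted p of at most 0.05 was reached by 18.0% of tested genes in the higher direction and by 18.7% in the lower direction. The ribosomal RNA precursor Rn45s took between 2.55 and 5.70% of counts in control and between 0.172 and 1.43% with PhenDC3. With unscaled library totals the median of all log2 fold changes moved up by 0.15 and higher calls were 68.0% of all calls instead of 49%.

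In control cells the 9 genes fell into a high and a low set when levels were expressed per length, as CPM per kb of exon. Ahcy, which cleaves S-adenosylhomocysteine, had the highest level at 221 ± 23.7 (SD, n = 3), followed by Mat2a, the catalytic subunit of methionine adenosyltransferase outside the liver, at 153 ± 24.9. Mat2b, its regulatory subunit, was at 50.6 ± 3.43. Cbs, the first enzyme of transsulfuration, was at 13.5 ± 1.04 and Mtr, methionine synthase, at 10.0 ± 3.81. Each of these 5 was separated from its neighbour in the order by ranges that did not overlap, except for Cbs and Mtr, whose ranges did.

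The 4 genes of the betaine chain lay far below in control cells. Bhmt2, a homologue of Bhmt that uses S-methylmethionine as methyl donor, was at 0.185 ± 0.0581 CPM per kb. It is counted with the betaine chain throughout, although its donor is not betaine. Dmgdh, the mitochondrial enzyme that demethylates dimethylglycine, was at 0.185 ± 0.109. Bhmt was at 0.0758 ± 0.0363 and Chdh, the choline dehydrogenase that starts betaine synthesis, at 0.0309 ± 0.00718. Within this set each gene's range overlapped that of the next. Between genes further apart, all Bhmt2 samples lay above all Bhmt and Chdh samples, and all Dmgdh samples above all Chdh samples. The gap between Bhmt2 and Bhmt was small, with 6 against 5 counts in control replicate 3. Reads of Bhmt may also have been lost, as 61.5% of its 50-base stretches occur in another gene model, against 6.32% for Bhmt2. With PhenDC3 the mean levels per kb were 2.35 ± 1.02 for Bhmt, 1.47 ± 0.409 for Dmgdh, 1.20 ± 0.355 for Bhmt2 and 0.122 ± 0.0508 for Chdh. The ranges of Bhmt and Dmgdh overlapped, as did those of Dmgdh and Bhmt2, while Chdh stayed below Bhmt2 and Mtr stayed above Bhmt.

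**Figure D1:**
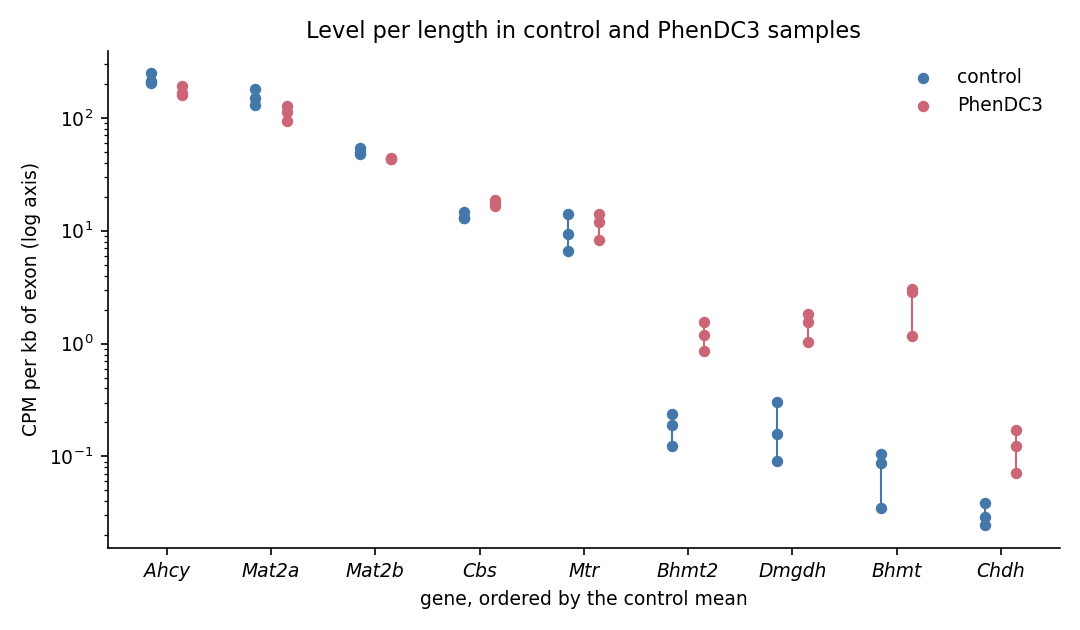
Levels of the 9 genes in CPM per kb of exon (log axis), with a point for each of 3 control and 3 PhenDC3 samples, lines joining the lowest and highest sample, and genes ordered by their control mean. The 5 genes on the left lie above all betaine-chain genes in both conditions, and Bhmt, Bhmt2, Dmgdh and Chdh move up with PhenDC3.

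Bhmt transfers a methyl group from betaine to homocysteine. It had 2, 4 and 5 counts in the control samples and 181, 141 and 67 counts in the PhenDC3 samples. In CPM these were 0.0724, 0.182 and 0.216 in control and 6.28, 5.90 and 2.43 with PhenDC3. The conditions were far apart, and PhenDC3 replicate 3 was the lowest of the treated samples. The ratio of summed counts, corrected for library size, was 32.0, with an exact 95% interval of 17.7 to 64.7 that covers counting error only and is wide because only 11 control counts were seen. The fitted log2 fold change was 4.95 (SE 0.52), the seventh highest of all tested genes. These values chose the gene and carry no test. Of the 50-base stretches in Bhmt transcripts, 61.5% also occur in another gene model that is not a row of the count table, so reads from the pair may have been lost or moved.

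Bhmt2 had 11, 11 and 6 counts in control and 72, 78 and 49 with PhenDC3, or 0.398, 0.502 and 0.259 CPM against 2.50, 3.26 and 1.78 CPM. Its lowest treated sample stood above its highest control sample. It rose 6.43-fold (log2 fold change 2.68, SE 0.36, edgeR adjusted p = 0.000787). Although it neighbours Bhmt, the 2 share only 10 of their 50-base stretches.

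Dmgdh acts on the dimethylglycine that the Bhmt reaction releases. It had 13, 6 and 21 counts in control and 157, 111 and 84 with PhenDC3. Its CPM were 0.471, 0.274 and 0.908 in control and 5.45, 4.64 and 3.05 with PhenDC3, again without overlap. It rose 7.89-fold (log2 2.98, SE 0.40, edgeR adjusted p = 0.000772).

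Chdh had the fewest counts of the 9 genes with PhenDC3. It had 4, 5 and 4 counts in control and 21, 10 and 28 with PhenDC3, or 0.145, 0.228 and 0.173 CPM against 0.728, 0.418 and 1.02 CPM. The groups did not overlap, but PhenDC3 replicate 2 was close to the controls. It rose 3.97-fold (log2 1.99, SE 0.48, edgeR adjusted p = 0.0120). The adjusted p was 0.0529 without control replicate 1 and 0.0529 without PhenDC3 replicate 3. Chdh overlaps Cacna1d on the other strand, and the strand setting of the counting is not given in the sources used here, so part of its counts may belong to that gene.

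Bhmt, Bhmt2, Dmgdh and Chdh reached the filter's level of 0.388 CPM (10 counts in a library of median size) in all 3 PhenDC3 samples but in 0, 1, 2 and 0 control samples. The filter needs 3 samples at this level, so Bhmt, Bhmt2 and Chdh, at their control levels in both conditions, would not have been tested, and these 3 had to differ to enter the test. Dmgdh would have entered at its control level. The calls of Bhmt2, Dmgdh and Chdh also held without any filter.

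**Figure D2:**
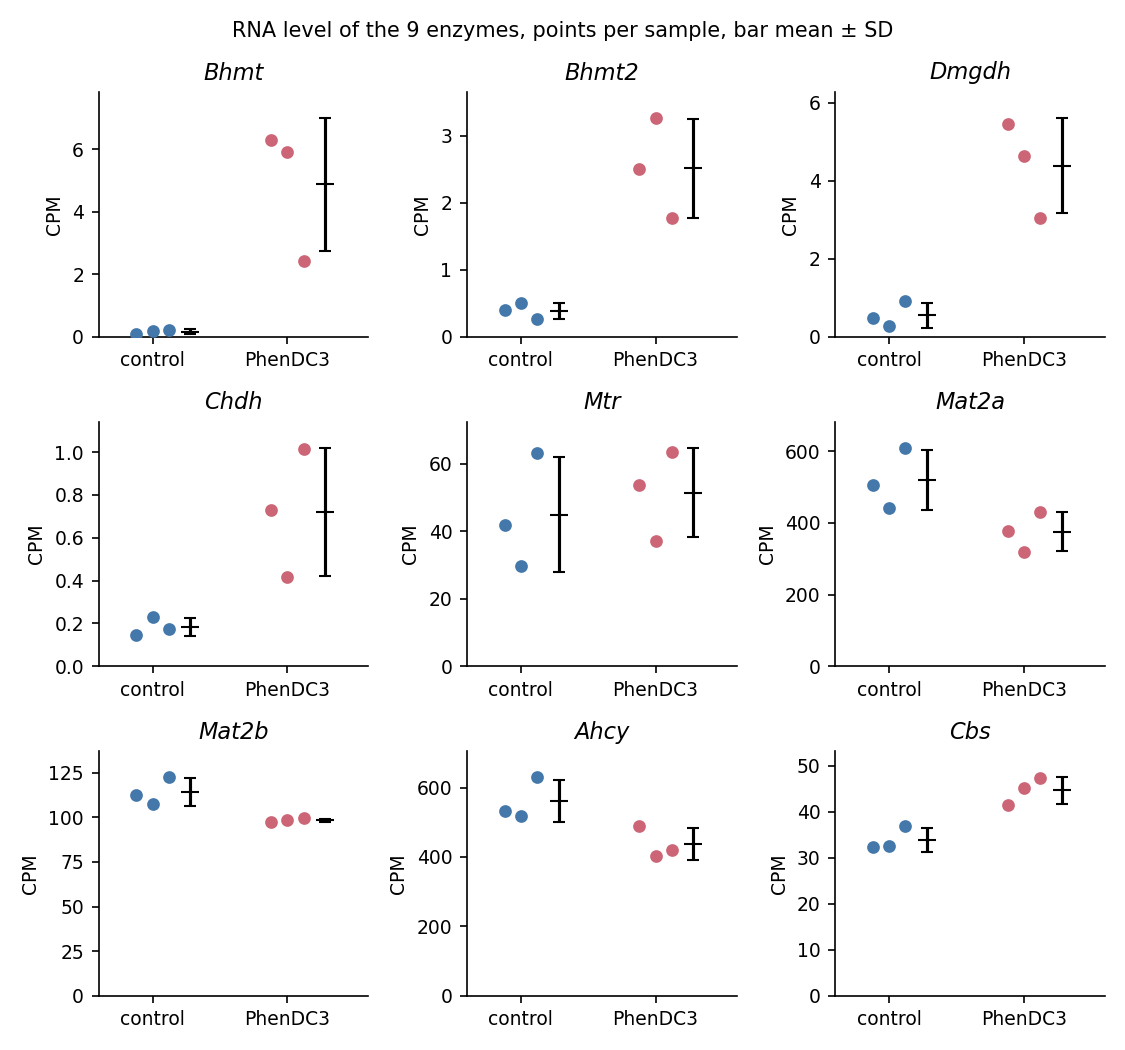
CPM of each of the 9 genes in 3 control and 3 PhenDC3 samples, one panel per gene with its own axis from 0, points for samples and a bar for mean ± SD. Bhmt, Bhmt2, Dmgdh and Chdh have no overlap between conditions, and Mtr does, with samples from 29.6 to 63.4 CPM in control and from 37.2 to 63.5 CPM with PhenDC3.

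Of the enzymes that make and use S-adenosylmethionine, Mat2a fell and neither Mat2b nor Ahcy passed the test. Mat2a was at 507, 442 and 609.8 CPM in control and at 378, 319 and 429.5 CPM with PhenDC3. All treated samples lay below all controls, with a small gap. It fell by 0.47 on the log2 scale (SE 0.16, edgeR adjusted p = 0.0419), and the adjusted p was 0.0907 to 0.127 without control replicate 1 or 3 or without PhenDC3 replicate 1 or 2. It was 0.110 with library totals and 0.0708 with totals that leave out Rn45s and Lars2, which also took a larger share in control.

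Mat2b was at 113, 107 and 123 CPM in control and at 97.5, 98.3 and 99.4 CPM with PhenDC3. No treated sample reached a control, but the difference of -0.21 (SE 0.10) did not pass the test (edgeR adjusted p = 0.129). Nor did it with the replicate number as a block (edgeR adjusted p = 0.0519). Ahcy was at 534, 519 and 630.0 CPM in control and at 489.6, 403 and 420.0 CPM with PhenDC3, also without overlap. Its difference of -0.36 (SE 0.13) missed the threshold (edgeR adjusted p = 0.0521). With the replicate number as a block it passed (edgeR adjusted p = 0.00509), as it did in DESeq2 (adjusted p = 0.0371). Of the 50-base stretches of Ahcy, 75.6% occur in another gene model that is not in the count table.

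Mtr and Cbs both act on homocysteine, Mtr returning it to methionine and Cbs removing it from the cycle. Mtr, which uses cobalamin and methyl-folate, was at 41.9, 29.6 and 63.4 CPM in control and at 53.8, 37.2 and 63.5 CPM with PhenDC3. The conditions overlapped, and replicate 2 was lowest and replicate 3 highest in each. The difference of 0.20 (SE 0.27) did not pass the test (edgeR adjusted p = 0.604), nor did it with the replicate number as a block (edgeR adjusted p = 0.0724). Cbs was at 32.2, 32.5 and 36.9 CPM in control and at 41.5, 45.1 and 47.2 CPM with PhenDC3. All treated samples were above all controls, and Cbs rose 1.32-fold (log2 0.40, SE 0.11, edgeR adjusted p = 0.0231). The adjusted p of Cbs lay between 0.0535 and 0.086 in 5 of the 6 fits that left out a sample, the exception being control replicate 3.

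Of the 8 genes other than Bhmt, 4 were called higher (Bhmt2, Dmgdh, Chdh and Cbs) and 1 lower (Mat2a). Over all tested genes the shares were 18.0% and 18.7%. The lower count ranged from 0 to 2 when a sample was left out, and was 0 without control replicate 1, control replicate 3, PhenDC3 replicate 1 or PhenDC3 replicate 2. The higher count was 2 without control replicate 1 or PhenDC3 replicate 3. With the replicate block the counts were 4 and 2, beside 27.2% and 26.4% of all tested genes. Of the same 8, 4 were higher in every PhenDC3 sample than in any control and 3 were lower, beside 25% and 25.6% of all tested genes. Bhmt2 and Chdh among the 4 had to be higher to pass the filter, so nothing is read from these counts.

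Relative amounts within the group also differed. Each of the amounts below includes Bhmt, which was chosen for its rise in these same samples. Their shift with PhenDC3 was therefore in part fixed by that choice and is only described. The betaine chain made up between 0.0945 and 0.114% of the summed level per length of the 9 genes in control and between 0.866 and 1.84% with PhenDC3. Bhmt and Bhmt2 together were at 0.0162 to 0.0497 of the level per length of Mtr in control and at 0.143 to 0.531 with PhenDC3. Even with PhenDC3, the folate-dependent enzyme thus had the higher level as counted. Reads of Bhmt may have been lost, since 61.5% of its 50-base stretches occur in another gene model, against 0.0% for Mtr. Bhmt was below Bhmt2 per length in each control (ratio 0.183 to 0.841) and above it in each PhenDC3 sample (1.38 to 2.54). The control ratios rest on 2, 4 and 5 counts of Bhmt and 11, 11 and 6 of Bhmt2. In bulk RNA, a change in the number of cells that express a gene and a change in RNA per cell cannot be told apart.

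Among further genes of the pathway, in lists chosen by function with earlier results of these data known, more fell than rose. Of 68 listed symbols, 66 were in the table and 58 were tested, of which 6 rose (10.3%) and 25 fell (43.1%), beside 18.0% and 18.7% of all tested genes. The median log2 fold change was -0.28, beside 0.01 for all tested genes. With the replicate block 12 rose and 29 fell, beside 27.2% and 26.4% of all tested genes. With library totals 11 rose and 17 fell, beside 3583 and 1688 of all 13972 tested genes. Without PhenDC3 replicate 1, 14 fell, beside 1623 of all 14195 genes tested in that fit.

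**Figure D3:**
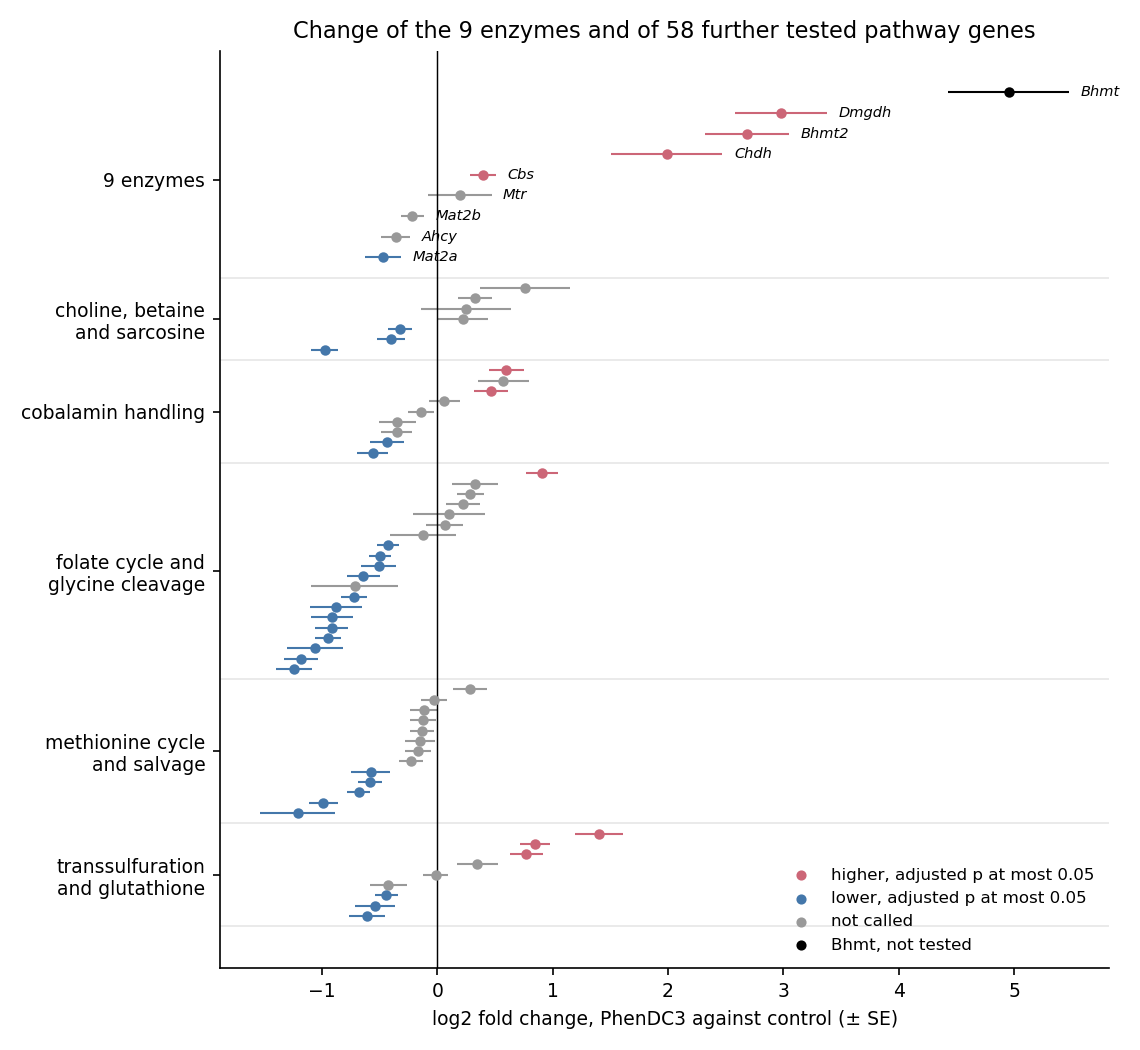
Log2 fold change (PhenDC3 against control) with its SE for the 9 genes and 58 further tested genes in 5 lists, coloured by the edgeR call. Bhmt, Dmgdh, Bhmt2 and Chdh stand on the right, at 4.95, 2.98, 2.68 and 1.99, while 12 of 20 genes of the folate cycle and glycine cleavage are called lower.

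The folate cycle and glycine cleavage provide the methyl group that Mtr uses. Of 20 tested genes, 12 fell (60.0%, beside 18.7% of all tested genes) and 1 rose (5.0%, beside 18.0%). The lowest were Gldc, the decarboxylase of the glycine cleavage system (log2 fold change -1.24, SE 0.16, edgeR adjusted p = 0.00059), and Mthfd1l, a mitochondrial formate-producing enzyme (-1.18, SE 0.15, edgeR adjusted p = 0.00051). Aldh1l1, which oxidises formyl-folate in the cytosol, rose (0.91, SE 0.14, edgeR adjusted p = 0.00129).

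Of 13 tested genes of methionine cycle and salvage, 5 fell (38.5%, beside 18.7% of all tested genes) and none rose by edgeR, and 0 were higher at an unadjusted p under 0.05 by edgeR or DESeq2. Those that fell included Srm, spermidine synthase (-0.99, SE 0.13, edgeR adjusted p = 0.000606), and Mettl16, an RNA methyltransferase known to regulate Mat2a RNA (-0.68, SE 0.10, edgeR adjusted p = 0.00105). Mat1a, the liver form of methionine adenosyltransferase, was too low to be tested, with at most 0.0865 CPM in any sample.

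Around betaine and sarcosine, 3 of 7 tested genes fell (42.9%, beside 18.7% of all tested genes), although the median log2 fold change of the 7 was 0.22, and none rose by edgeR, and 0 were higher at an unadjusted p under 0.05 by edgeR or DESeq2. Pipox, which oxidises sarcosine and pipecolic acid, fell by 0.98 on the log2 scale (SE 0.12, adjusted p = 0.000441), and the choline transporter Slc44a2 fell by 0.40 (SE 0.12, adjusted p = 0.0278). Aldh7a1, also of this list, had a log2 fold change of -0.32 (SE 0.11, edgeR adjusted p = 0.0413). Sardh, the sarcosine dehydrogenase that follows Dmgdh, and the betaine transporter Slc6a12 were too low to be tested.

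Of 9 tested genes of transsulfuration and glutathione, 3 rose and 3 fell (33.3% each way, beside 18.0% and 18.7% of all tested genes). Cdo1, the cysteine dioxygenase, rose by 1.40 on the log2 scale (SE 0.21, edgeR adjusted p = 0.00124) and Gss, glutathione synthetase, by 0.85 (SE 0.13, edgeR adjusted p = 0.00154). Mpst, a sulfurtransferase, fell by 0.61 (SE 0.16, edgeR adjusted p = 0.0151) and the persulfide dioxygenase Ethe1 fell by 0.54 (SE 0.17, edgeR adjusted p = 0.0362). In cobalamin handling, which serves Mtr, 22.2% moved each way, close to the shares of all tested genes. There 2 of 9 rose, the carrier Tcn2 (0.60, SE 0.15) and the lysosomal exporter Lmbrd1 (0.47, SE 0.15), and 2 fell, the receptor Cd320 (-0.43, SE 0.14) and the cobalamin-processing protein Mmachc (-0.56, SE 0.13).

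Other genes near Bhmt were read for comparison. Of 10 annotated genes with a start within 300 kb, 7 were in the count table and 5 were tested, among them Bhmt, Bhmt2 and Dmgdh. Jmy, a regulator of actin, rose by 0.34 on the log2 scale (SE 0.11, edgeR adjusted p = 0.0365), and Arsb, a lysosomal sulfatase beyond Dmgdh, had a difference of 0.73 (SE 0.39) that did not pass the test (edgeR adjusted p = 0.167). AW495222 had at most 1 count in a sample and Mir5624 had none.

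The 5 genes whose pattern over the 6 samples was most like that of Bhmt were Fbln5, Calcoco2, Ly6a, Usp17lb and Alcam. Likeness was the root mean square distance between mean-centred log2 CPM, among 12479 genes with a mean of at least 1 CPM, and lay between 0.497 and 0.725. The pattern of Dmgdh ranked 23 (0.869) and that of Bhmt2 63 (1.06). Usp17lb belongs to a family of near-identical copies, so its counts are uncertain.

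Markers of cell types were examined because Bhmt is a liver gene. The hepatocyte list summed to 2.68 to 3.87 CPM in control and 2.40 to 3.82 CPM with PhenDC3, Alb was at 0 in all samples, and only 2 of its 8 genes (Cps1 and Hnf4a) were high enough to be tested by edgeR, with 0 called and 0 at an unadjusted p under 0.05, and DESeq2 called 0. The ES cell list summed to 6479 to 6903 CPM in control and 8455 to 9426 CPM with PhenDC3, with 4 of 8 genes higher (Nanog, Klf4, Tfcp2l1 and Dppa5a) and Pou5f1 lower. In the primitive endoderm list 5 of 7 genes were higher (sum 49.2 to 112 CPM against 101 to 162 CPM), and in the trophoblast list 3 of 6 (Gata3, Krt8 and Tfap2c, with sums of 64.7 to 81.0 CPM against 136 to 173 CPM), where Eomes had a difference of -0.47 that did not pass the test. The neuroectoderm and mesoderm list summed to 23.5 to 26.9 CPM in control and 39.0 to 41.7 CPM with PhenDC3, with Nes higher and Pax6 lower. The fibroblast list summed to 5.88 to 6.84 CPM in control and 3.18 to 5.77 CPM with PhenDC3, with Thy1 lower and Dcn and Lum at 0. In that list Col1a1 (0.68, SE 0.38) and Col1a2 (1.64, SE 0.72) went the other way and did not pass the test. Over all tested genes, 18.0% were called higher and 18.7% lower. The part of these markers in the levels of the 9 genes was not tested.

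Replication origins near the 9 genes are a readout the choice of genes did not use. Peaks were called by the authors in each sample against an RNase-treated library of the same condition, the lists give no read counts, and a region counts as an origin where 2 or more samples of the same condition have a peak. At 3 against 2 samples, no exact test of a single locus can reach p = 0.05. An origin lay within 2 kb of a start in 5 of the 9 genes (Bhmt2, Dmgdh, Mat2a, Mat2b and Cbs), beside 51.1% of 21000 protein-coding genes. Bhmt2 and Dmgdh share theirs.

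The shared origin, at chr13:93673912-93674253, ends just short of the G-rich stretch printed above, inside Bhmt2. It had a peak in control replicates 1 and 2 (4.15-fold and 4.94-fold over the RNase-treated library) and in both PhenDC3 replicates (6.10-fold and 6.15-fold), and none was listed in control replicate 3. A second origin in the body of Bhmt2, at chr13:93657830-93658303, had peaks in all 5 samples, at 16.7-fold, 13.2-fold and 12.1-fold in control and 8.22-fold and 7.42-fold with PhenDC3. Each condition had its own RNase-treated library as the reference of these folds, so values are not compared between conditions.

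Bhmt itself had no origin. It held 3 peaks, all listed in PhenDC3 replicate 1 alone, at 5.28-fold, 7.70-fold and 10.2-fold, and PhenDC3 replicate 1 also had the longest list of the 5 samples (144103 peaks, against 79377 to 120882 in the others). Along Dmgdh, 3 regions of the gene body had peaks in all 5 samples.

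**Figure D4:**
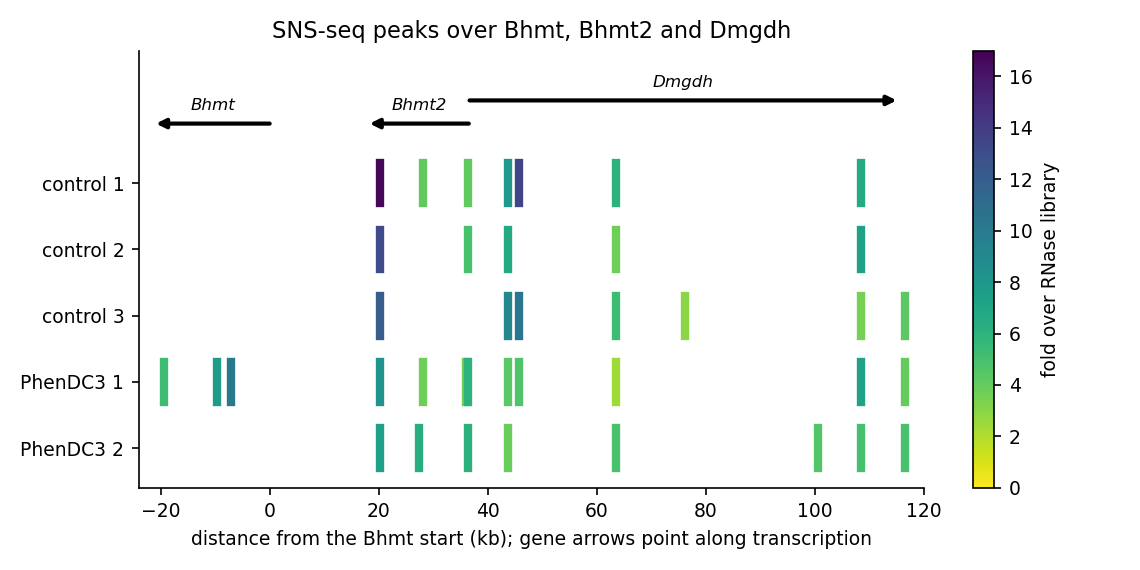
SNS-seq peaks over Bhmt, Bhmt2 and Dmgdh in 3 control and 2 PhenDC3 samples, by distance from the Bhmt start in kb, coloured by fold over the RNase-treated library, with arrows for the genes along their direction of transcription. Bhmt has peaks in PhenDC3 replicate 1 only, and the Bhmt2 and Dmgdh bodies together have 4 regions with peaks in all samples.

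Mtr, without an origin near its start, held 6 in its body. Of these, 2 had peaks in both PhenDC3 samples and in no control, 3 had peaks in 2 or 3 controls and in no PhenDC3 sample, and 1 had peaks in all 5 samples. Cbs held 7 origins, including the one near its start, which had peaks in all 5 samples, between 4.46-fold and 6.09-fold. The origin near Mat2a had peaks in control replicates 1 and 2 and in both PhenDC3 samples, as had the one near Mat2b. Ahcy had 1 origin, 9289 bp from its start and present in all samples. Chdh had 1, seen in 2 controls only.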

How the data were processed

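RNA-seq was available for 3 control and 3 PhenDC3 samples and SNS-seq peaks for 3 and 2. The authors mapped RNA reads with TopHat2 2.1.1 and Bowtie2 2.2.9 and counted them on genes with HTSeq 0.6.1p1. The deposited counts are raw, and the annotation and strand setting of the counting are not given in the sources used here. A deposited table from DESeq2 (mean signal, log2 fold change, SE and p-values of the authors' own comparison) and one of normalized pseudo-counts were not used. For SNS-seq, reads were mapped to mm10 and peaks called per replicate with MACS2 2.1.0, those touching a SICER region being retained. In the deposited lists a peak has its ratio over the RNase-treated library, as a fold, and −log10 of a p-value and q-value from the authors' caller. They hold no counts, so their depth is unknown.

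Counts were tested with edgeR 4.0.16 (R 4.3.3, RLE, filterByExpr, robust quasi-likelihood), called at an adjusted p of at most 0.05, and the test was checked on simulated counts. DESeq2 1.42.0 was an alternative. Other steps used Python 3.11.15 with pandas 2.3.3 and scipy 1.17.1. CPM per kb used the exon length of RefSeq on GRCm38.p6. Deviations from the group means correlated between control and PhenDC3 samples of the same number (0.105, 0.638 and 0.502 over 12480 genes). Between samples of different number the correlations were -0.557 to 0.0783, so replicate 1 stood out little. The deviations of a group sum to 0, so these values are not independent. The numbers were taken to pair samples in an alternative fit with the number as a block, and the main fit did not use the pairing. The members and lists were chosen with earlier results of these data known. The genes named are the 9 members, up to 2 rises and 2 falls per list (adjusted p at most 0.05, mean of at least 1 CPM, no overlap), genes within 300 kb of Bhmt, the 5 most like it and the markers. Mat1a, Sardh, Slc6a12, Aldh7a1 and the gene overlapping Chdh were named after their values were seen.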

Additional observations from a re-analysis of the deposited data

How the results depend on the processing

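Over 13 alternatives (12 for Chdh, which a filter of 1 CPM in 3 samples removed) the calls of Bhmt2 (log2 fold change 2.46 to 2.89) and Dmgdh (2.68 to 3.50) held, and Bhmt stayed between 4.57 and 5.28. The cause of the differences listed here was not tested. The replicate block changed no call among the 9 genes other than that of Ahcy. With it 3797 genes were higher instead of 2518, 2 members were lower instead of 1, and 12 further pathway genes were higher instead of 6. With library totals 3583 genes were higher instead of 2518 and 1688 were lower instead of 2617. There 0 members were lower, and 11 further pathway genes were higher and 17 lower. Members called lower were 2 with TMM, 2 with DESeq2, and 0 with totals without Rn45s and Lars2, an alternative chosen after seeing the data. Leaving out a sample gave 1709 to 2689 genes higher and 1623 to 2727 lower (the fewest of both without PhenDC3 replicate 1), 2 to 4 members higher and 0 to 2 lower, and 5 to 6 further pathway genes higher and 14 to 24 lower. Mtr had a difference of -0.034 to 0.52 when a sample was left out, the lowest without control replicate 2. In the control order by level per length 7 of the 9 genes kept their place with TMM, and 7 to 9 when a control was left out. Origins within 2 kb upstream only were found for 3 members, beside 37.9% of protein-coding genes. With 2 kb on both sides and an SNS-seq sample left out, they were found for 5 to 6 members, beside 38.3 to 60.7% of genes. Bhmt and Chdh rest on 11 and 13 control counts, which limits the precision of their folds.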
